A study of Mus musculus with 5 samples.

Results

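The cytosolic ribosomal protein genes were examined in 5 Tag-seq libraries made from mouse hearts at E10.5. They were chosen by name: every reference protein-coding gene whose symbol starts with Rpl or Rps followed by a digit, together with Rpsa, Rplp0, Rplp1 and Rplp2, leaving out the S6 kinases and pseudogene symbols. This gave 86 genes of 24303 in the reference, namely 52 with large-subunit symbols, 33 with small-subunit symbols and Rps19bp1, which encodes a protein that binds Rps19 and is not itself part of the ribosome. Of the 86 genes, 79 had at least 1 tag of their own in at least 1 library, out of 13486 genes of the series with such a tag. The symbol of Rpl3l, Rpl7l1, Rpl10l, Rpl22l1, Rpl36al, Rpl39l and Rps27l marks each as a paralogue of another ribosomal protein gene.

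The libraries were made from the atrioventricular canal (AVC), the outflow tract (OFT), the atria and the ventricles of wild type C57BL/6 embryos, and from the AVC of Twist1 Knockout embryos of the ICR strain, all at Theiler stage 17. Each was a pool of tissue from at least 3 litters, and each group was 1 library, so there were no replicates. Tests on these counts compare libraries and not conditions, and for the null AVC the strain and the genotype cannot be told apart. Levels are given as tags per 1000000 listed tags of a library (TPM). Twist1, a transcription factor of the cushion mesenchyme, was at 918.0 TPM (AVC), 298.8 (OFT), 63.43 (atria), 55.87 (ventricles) and 4.546 (null AVC), lowest in the library labeled as its knockout.

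Ribosomal proteins are assembled with ribosomal RNA into a small subunit, which decodes the mRNA, and a large subunit, which forms the peptide bonds. They are needed in matched amounts, and their mRNAs share a pyrimidine-rich start that places their translation under control of growth signaling. They are among the most abundant mRNAs of growing tissue, and the mouse genome holds many processed pseudogenes of them.

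A tag is the CATG at which the enzyme NlaIII cuts and the 17 bases that follow it. These 21 bases stand for a transcript of the gene and need not lie at its end. Tags of the 3′-most site made up 63.58% (OFT) to 75.5% (ventricles) of the family's tags. The Rpsa and Rpl22 tags printed here lie at site 7 and site 6 counted from the 3′ end. The tags below carried some of the largest differences described here, and are shown because each gene's level rests on them. The capital marks the first base after the site. The positions are those of a match to the reference transcripts on GRCm38.
Rpl13: catgAtactgaagccccactt
Rpsa: catgCctgatctttacttcta
Rplp0: catgCtgaacatctccccctt
Rpl37a: catgAaaacagtggccggtgg
Rpl22: catgGatgctgccaattttga
Rpl32: catgTtttatgtttaaataaa
Rpl19: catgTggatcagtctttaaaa

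The tag of Rpl13 lies in coding sequence at chr8:123102679-123102699 on the plus strand. Those of Rpsa (chr9:120130860-120130880, plus) and Rplp0 (chr5:115561395-115561415, plus) are also coding. The same holds for Rpl37a (chr1:72712189-72712209, plus). The tag of Rpl22 runs over a splice junction in coding sequence, from chr4:152327567 to 152330005 on the plus strand with 2418 intron bases left out. The tags of Rpl32 (chr6:115805526-115805546, minus) and Rpl19 (chr11:98030436-98030456, plus) lie in the 3′ UTR, and both begin with T after the site.

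Not every gene could be read. No RefSeq-linked transcript of Rpl35a or Rps21 holds an NlaIII site. No tag was listed for Rpl10l or Rpl39l, paralogues of Rpl10 and Rpl39 known from the testis, in any library, which leaves fewer than 6 tags of any 1 type. Rplp2, a protein of the ribosomal stalk, was seen only through tags it shares with Wdr89, and these shared tags came to 1349 TPM (AVC), 2508 (OFT), 2955 (atria), 7914 (ventricles) and 4824 (null AVC). Rps27 and its retrogene Rps27rt shared all their tags with each other, at 1157 to 1665 TPM. For Rpl14, Rpl29, Rps23, Rps15a and Rpl7l1 the shared tags exceeded the gene's own, so that their own counts below are a small part of what the gene may have given. Rps23, for example, had 6.00 to 53.56 TPM of its own over the 5 libraries and 739.2 to 1670 shared with Gm8624. The 1 shared tag type of Rpl7l1, at 2153 to 3233 TPM, is also in genes outside the family such as 1110046J04Rik and 1700007J10Rik. Genes that share tags with Rps15a include Ccdc60 and Ccdc82. What part of these shared tags came from Rpl7l1 or Rps15a cannot be told.

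The tags were assigned among RefSeq-linked transcripts, which hold few pseudogenes. When every transcript of the annotation was searched, the most abundant tag of 20 of the 79 genes belonged to that gene alone, and that of the other 59 was also in 1 to 32 other genes, among them at least 1 pseudogene in 55 cases. The tag of Rps2 was the one found in 32. Tags of the gene and of an expressed copy of it cannot be told apart for those 59. Rpl19, Rpl22l1, Rpl32, Rpl38, Rpl8, Rps25 and Rps29 were among the 20 with a tag of their own in this stricter sense.

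The 79 genes together gave 7.79% of all AVC tags (95% Clopper-Pearson interval 7.768 to 7.811) and 8.35% of OFT tags (8.326 to 8.374). They gave 9.943% of atrial tags (9.916 to 9.971), 11.61% of ventricular tags (11.58 to 11.64) and 7.946% of tags from the null AVC (7.931 to 7.961). These intervals, like all those below, cover counting error only, and depth was 4223810 to 12977237 tags per library. The share was thus higher in both chamber libraries than in the 3 others. Globin tags took 21.97% of the atrial library and 4.751% of the ventricular one, against 0.3666% (AVC), 0.4327% (OFT) and 3.048% (null AVC). With globin tags set aside, the share became 12.74% (atria) and 12.19% (ventricles), so the order of the chambers turned, and it stayed lower elsewhere, at 7.818% (AVC), 8.386% (OFT) and 8.196% (null AVC).

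**Figure D1:**
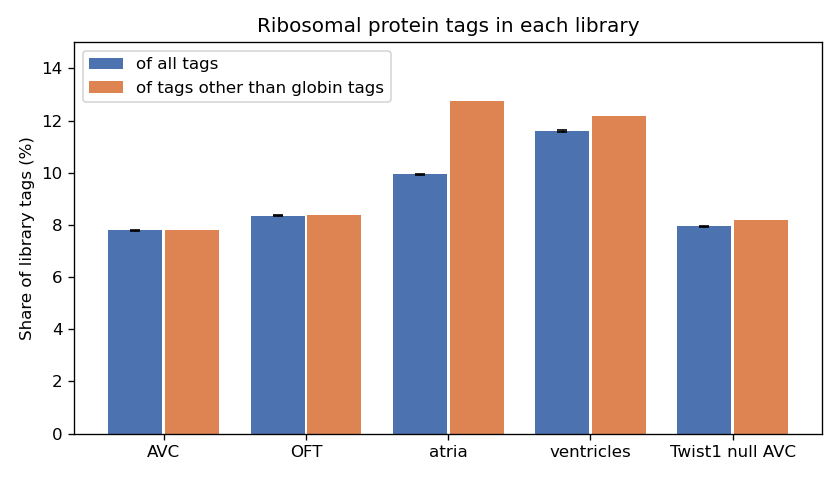
Bars give the share of library tags (percent, axis from 0) that belonged to ribosomal protein genes in each of the 5 libraries, of all tags (blue, with 95% Clopper-Pearson intervals) and of tags other than globin tags (orange). Both chamber libraries stand above the others, and the atria pass the ventricles only when globin tags are set aside (12.74% against 12.19%).

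Few genes supplied much of this share. The 5 genes with the most tags in a library held 24.05% (AVC), 30.92% (OFT), 31.79% (atria), 35.69% (ventricles) and 28.96% (null AVC) of the ribosomal protein tags. Large-subunit genes gave 53.97% to 60.56% of the ribosomal protein tags.

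Within each kind of tissue the family was alike. Between the OFT and the AVC, 0 of 76 genes with at least 50 tags in both libraries differed by more than 2-fold, where 4.57% of all genes with that many tags did. The ratios ran from -0.56 to 1.0 on the log2 scale. Between the ventricles and the atria, 1 of 73 genes passed 2-fold, against 12.1% of all genes, and it was Rpl32 with a log2 ratio of 1.09. In contrast, the AVC was more than 2-fold above the ventricles for 17 of 74 genes (23.0%) and more than 2-fold below for 24 (32.4%). Over all genes with that many tags, 28.8% were above and 16.6% below, so wide differences between these libraries were not particular to the family. The median absolute log2 difference was 1.16 over the 74 and 0.90 over all genes. These are ratios of single libraries with no test.

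The first comparison asked how the AVC differed from the atria and ventricles, whose tags were summed. Among 78 genes tested, 17 were called lower in the AVC and 11 higher by edgeR's exact test at an unadjusted p below 0.05 with a fixed dispersion of 0.12. Over all 12503 genes tested, 8.12% were called lower and 43.4% higher (51.5% in either direction). The median log2 ratio of the family was -0.12, whereas that of all genes was 1.23. The family therefore had a larger share of lower calls and a smaller share of higher calls than the table as a whole. The gap between the medians was smaller among genes with at least 50 tags in both libraries, with each chamber taken alone. There the median log2 ratio of AVC over ventricles was -0.21 (family) and 0.28 (all genes), and that of AVC over atria -0.07 and 0.58. With TMM scaling, which moved the median of all genes by -0.95 to 0.28, the family's median was -1.07. The family's calls were then 30 lower and 4 higher. The share of all genes called in that setting is not set beside them, so these counts describe no trait of the family. The split between directions thus depends on the scaling, and the ratios are best read relative to the median of all genes. The erythroid marker genes moved with this contrast: 9 of 11 were called lower in the AVC, none was called higher, and their summed level was 2436 TPM (AVC), 215400 (atria) and 46740 (ventricles), with 1 of the 11 at 0 in the AVC and 1 in the ventricles. Cardiomyocyte markers summed to 10440 TPM in the atria and 24780 to 29820 in the other libraries, with none of the 16 at 0. Cushion mesenchyme markers summed to 3289 (AVC), 4059 (OFT), 364.7 (atria), 349.7 (ventricles) and 877.2 (null AVC). The part of blood RNA in the family's ratios was not tested, though the share without globin tags is given above. In tissue libraries, fewer cells of a type and less RNA per cell cannot be told apart.

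Rplp0 and Rpsa were among the genes higher in the AVC. Rplp0, the protein that anchors the stalk to the large subunit, was at 2587 TPM (AVC), 3801 (OFT), 239.4 (atria), 202.0 (ventricles) and 1327 (null AVC). Rpsa, a small-subunit protein also known as the laminin receptor, was at 5518 TPM (AVC), 10490 (OFT), 531.4 (atria), 618.2 (ventricles) and 1412 (null AVC). Both were lower in each chamber than in any other library. Rplp0 was higher in the AVC than in the chambers with a log2 ratio of 3.55 (exact test, p = 7.62e-06) and Rpsa with one of 3.27 (exact test, p = 2.94e-05). In the OFT the ratios over the chambers were 4.10 for Rplp0 (exact test, p = 4.51e-07) and 4.19 for Rpsa (exact test, p = 2.73e-07). Rplp1, the other stalk protein with tags of its own, had its highest levels in the chambers, with 3658 TPM (AVC), 3406 (OFT), 5829 (atria), 8097 (ventricles) and 2987 (null AVC). Its difference between AVC and chambers did not pass the test (log2 ratio -0.92, exact test, p = 0.205).

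Rpl13, a large-subunit protein, had the largest positive ratio of the genes with tags in every library. It was at 2524 TPM (AVC), 4212 (OFT), 126.4 (atria), 84.76 (ventricles) and 947.7 (null AVC). Its level was 23.7 times higher in the AVC than in the chambers (log2 ratio 4.57, exact test, p = 3.97e-08), and the OFT value was 5.30 (exact test, p = 7.14e-10). Rpl15 and Rpl36, both of the large subunit, had log2 ratios of 2.24 and 2.45 in the AVC (exact test, p = 0.0028 and 0.00124). Rps7, of the small subunit, was at 454.0 TPM (AVC), 687.8 (OFT), 109.7 (atria), 132.3 (ventricles) and 402.2 (null AVC). It was called higher in the AVC (log2 ratio 1.91, exact test, p = 0.0101) and in the OFT (2.51, exact test, p = 0.000939), but its ratio turned to -0.30 when only the tag of the 3′-most site was counted.

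The remaining genes called higher in the AVC were Rpl4, Rpl9, Rps29, Rps15a and Rps19bp1. Rps15a rests on 6 tags in the AVC and 0 in the chambers and is turned by its shared tags, to -1.21. Rps19bp1 was at 16.46 TPM (AVC), 15 (OFT), 2.786 (atria), 4.498 (ventricles) and 4.084 (null AVC).

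Rpl22l1, the paralogue of Rpl22, was the gene most reduced in the AVC. It was at 14.81 TPM (AVC), 21.83 (OFT), 580.1 (atria), 849.0 (ventricles) and 26.20 (null AVC), so both chambers stood far above the rest. The log2 ratio was -5.58 in the AVC (47.7-fold lower, exact test, p = 2.09e-10) and -5.02 in the OFT (exact test, p = 4.27e-09). Rpl22 itself, which is closely related in sequence, was at 354.7 TPM (AVC), 403.6 (OFT), 368.4 (atria) and 558.3 (ventricles), and its log2 ratio of -0.37 in the AVC did not pass the test (exact test, p = 0.607). The leading tag of Rpl22l1 is in no other gene of the annotation, while its second tag is also in 1 pseudogene, Gm15421.

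Among genes of the small subunit, Rps12, Rps13 and Rps26 were lower in the AVC. The log2 ratio of Rps13, at 192.7 TPM (AVC), 228.6 (OFT), 1688 (atria) and 1239 (ventricles), was -2.94 (exact test, p = 0.000143). Rps12 was at 941.3 TPM (AVC), 819.3 (OFT), 3881 (atria), 5683 (ventricles) and 1223 (null AVC), with a log2 ratio of -2.33 (exact test, p = 0.00196). Rps26 was at 296.9 TPM (AVC), 377.4 (OFT), 982.3 (atria), 1739 (ventricles) and 826.8 (null AVC). With every transcript searched, the leading tag of Rps13 drops out as shared, and the few tags then left, which include tags of transcripts outside the RefSeq-linked set, gave a positive ratio. In each of these 3 genes, both chamber libraries lay above the AVC and the OFT.

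Among large-subunit genes called lower, Rpl37a was at 261.7 TPM (AVC), 234.5 (OFT), 3062 (atria), 2055 (ventricles) and 254.9 (null AVC) (log2 ratio -3.30 in the AVC, exact test, p = 2.5e-05). Rpl32 was at 283.8 TPM (AVC), 438.0 (OFT), 1092 (atria) and 2329 (ventricles), with a log2 ratio of -2.57 in the AVC (exact test, p = 0.000738). Rpl38, whose loss in mice alters the axial skeleton, was at 685.5 TPM (AVC), 737.1 (OFT), 3094 (atria) and 3105 (ventricles). The ratio of Rpl37a turned to 0.62 on the few tags left with every transcript searched, and that of Rpl32 to 0.20 without tags that begin with T. The ratio of Rpl38 was -2.18 in the AVC (exact test, p = 0.00365) and -2.07 in the OFT (exact test, p = 0.00549). Of the 19 tested genes whose leading tag is in no other annotated gene, 7 were lower in the AVC (Rpl14, Rpl19, Rpl22l1, Rpl32, Rpl36a, Rpl38 and Rpl8) and 4 higher (Rpl4, Rps15a, Rps19bp1 and Rps29).

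**Figure D2:**
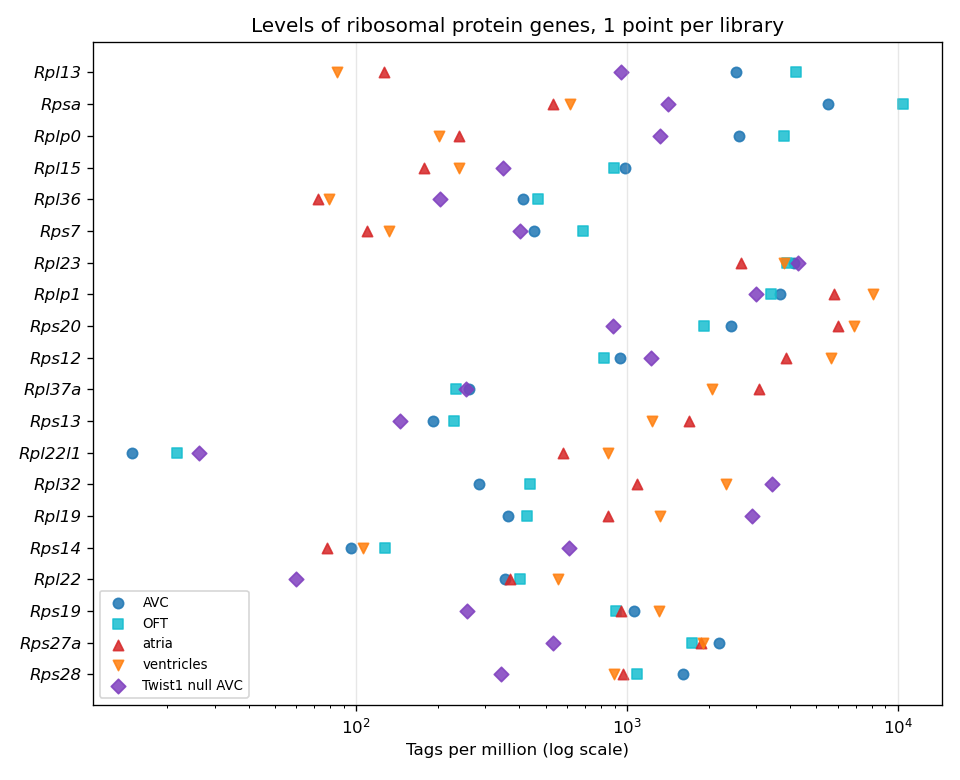
Points give the TPM (log scale) of named ribosomal protein genes, 1 point per library with no replicate error. Rpl13, Rpsa and Rplp0 stand lowest in the chambers, Rps12, Rpl37a and Rpl22l1 stand highest there, and Rpl32 and Rpl19 in the null AVC (3421 and 2885) lie above every other library.

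The second comparison set the OFT against the same summed chamber tags, so both comparisons share those libraries. Of 77 genes tested, 15 were called lower and 10 higher, where 8.88% and 40.6% of all genes were (49.5% in either direction). The family's median log2 ratio was 0.08, against 1.07 for all genes. TMM scaling gave medians of -0.78 (family) and 0.21 (all genes). It changed the family's calls to 27 lower and 5 higher, again without the share of all genes in that setting beside them. Rpl37a fell by 3.46 on the log2 scale (exact test, p = 1.16e-05), Rps13 by 2.69 (exact test, p = 0.000431) and Rps12 by 2.53 (exact test, p = 0.000848). The small-subunit gene Rps10 had a higher level in the OFT (3313 TPM, against 989.8 and 896.8 in atria and ventricles, log2 ratio 1.81, exact test, p = 0.0145). Without the atrial or the ventricular library the numbers called in both comparisons moved by 1 to 3 genes.

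Counting simply by order, both chamber libraries lay above the AVC and the OFT for 30 of the 79 genes and below both for 28, and 21 overlapped. Over all genes, 12.9% lay above and 54.9% below. The family thus held both orders in like numbers. Rpl5 and Rpl11, which bind Mdm2 together with the 5S ribosomal RNA, were of the second kind, at 971.9 and 465.3 TPM (AVC), 831.7 and 449.0 (OFT), 424.5 and 168.4 (atria) and 508.8 and 200.1 (ventricles).

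The third comparison set the Twist1 null AVC against the wild-type AVC. Of 78 genes tested, 11 were called higher and 11 lower. Over all 12963 genes, 11.9% were called higher and 12.7% lower (24.6% in either direction), so the shares in the family are near those of the background. The family's median log2 ratio was -0.14 and that of all genes -0.16. TMM scaling, which moved the median of all genes by 0.24, gave medians of 0.10 (family) and 0.08 (all genes). The family's calls were then 13 higher and 7 lower. After Benjamini-Hochberg adjustment over all genes, 4 higher calls and 2 lower calls of the family were left. For both settings the share of all genes called is not set beside these counts. The erythroid genes rose here too, from a summed 2436 to 27400 TPM (6 of 11 called higher), and the cushion mesenchyme genes fell (9 of 11 called lower). Whether these bear on the family was not tested.

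The genes higher in the null AVC included Rpl32 and Rpl19, both of the large subunit. Rpl32 was at 3421 TPM, against 283.8 in the wild-type AVC (log2 ratio 3.59, exact test, p = 6.07e-06, adjusted p = 0.00103 over all genes). Rpl19 was at 2885 TPM against 364.1 (AVC), 428.3 (OFT), 848.8 (atria) and 1327 (ventricles) (log2 ratio 2.99, exact test, p = 0.000112). Both were higher in the null AVC than in any wild-type library. Rps14, which is lost in the 5q- syndrome, was at 608.9 in the null AVC against 77.79 to 128.0 in the wild-type libraries (log2 ratio 2.67, exact test, p = 0.000475). Rpl11, Rpl14, Rpl17, Rps15a, Rps23 and Rps26 were also called higher. The ratio of Rpl14 turned to -0.62 with shared tags counted. Without tags that begin with T, Rps15a had 0 tags in the null AVC. Rpl3l, a paralogue of Rpl3 known from striated muscle, was listed with 17 tags in the null AVC and at 0 in each wild-type library.

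The genes lower in the null AVC were led by Rpl22 and Rps28. Rpl22 was at 60.11 TPM in the null AVC and at 354.7, 403.6, 368.4 and 558.3 in the AVC, OFT, atria and ventricles (log2 ratio -2.56, exact test, p = 0.000776). Rps28 was at 343.6 in the null AVC against 894.2 to 1606 in the wild-type libraries (log2 ratio -2.23, exact test, p = 0.00302). Rps19, the gene most often mutated in Diamond-Blackfan anemia, was at 256.2 TPM against 1059 (AVC), 912.6 (OFT), 954.0 (atria) and 1315 (ventricles) (log2 ratio -2.05, exact test, p = 0.00606). Rps27a, which is made as a fusion with ubiquitin, was at 534.7 TPM against 2195 (AVC), 1740 (OFT), 1881 (atria) and 1916 (ventricles) (log2 ratio -2.04, exact test, p = 0.00626). In these 4 genes the null library lay below all wild-type libraries, while the tags that are left for Rpl22, Rps19 and Rps28 when all transcripts are searched gave positive ratios. Rpsa was lower than in the AVC too (log2 ratio -1.97, exact test, p = 0.00816), though its level of 1412 remained above both chambers. Rpl15, Rpl24, Rps3a1, Rps19bp1 and Rps20 were also called lower. Tags that are 1 base away from a leading tag and in no annotated transcript were summed as well. For Rpl22, Rps28, Rps19 and Rps27a they came to 71.82, 0, 0 and 0 TPM in the null AVC. The 71.82 of Rpl22 is above the 38.07 of its leading tag in that library, whereas in the wild-type AVC its neighbors came to 49.71 beside a leading tag at 351.4. With the neighbors added to the gene, the log2 ratio of Rpl22 was -1.62 in place of -2.56, given as a value with no test. The most frequent such neighbor of the Rps26 tag reached 1239 TPM in the null AVC, above the 820.4 of the tag itself. In the wild-type libraries the most frequent neighbor stood at 189.9 (AVC), 49.17 (OFT), 628.1 (atria) and 309.9 (ventricles). With the neighbors added, the log2 ratio of Rps26 in the null AVC was 2.25 in place of 1.48, also with no test.

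**Figure D3:**
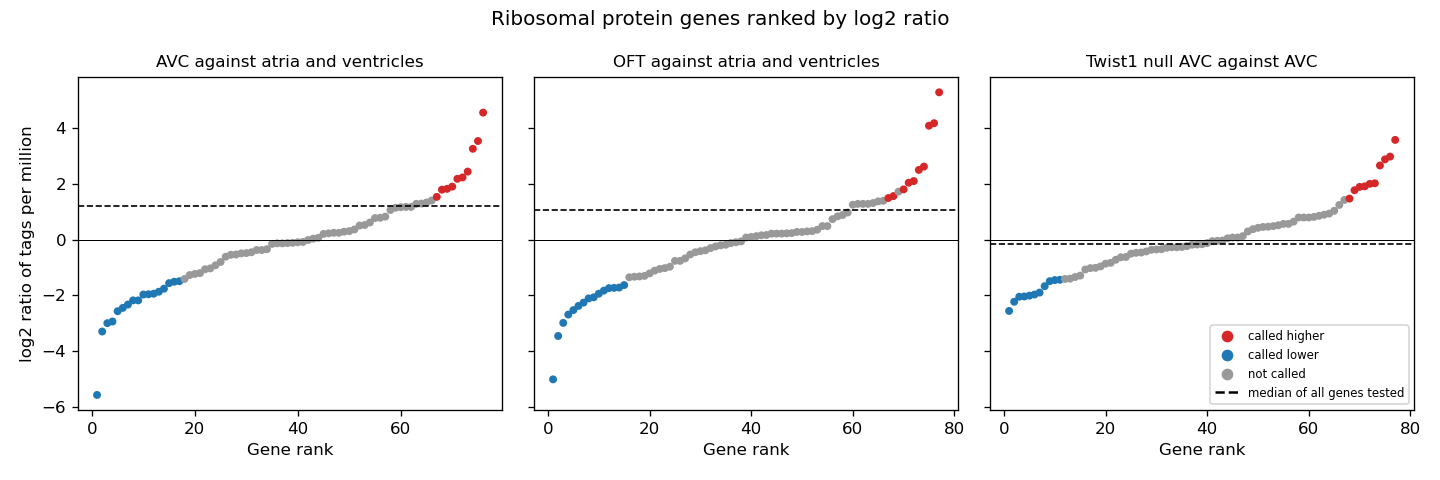
Genes of the family ranked by log2 ratio of TPM in the 3 comparisons, with called genes in red (higher) and blue (lower), a solid line at 0 and a dashed line at the median of all genes tested. The dashed line lies at 1.23 and 1.07 in the chamber comparisons and at -0.16 in the null AVC comparison, and genes with 0 tags in 1 group are not drawn.

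The higher calls in the null AVC went with the first base of the leading tag. Of 15 tested genes whose leading tag begins with T, 12 had a log2 ratio above 0, 8 were called higher and 0 lower, and the median was 1.48. The medians were -0.23, -0.35 and -0.34 for genes whose tag begins with A, C or G, with 1 higher call in each class. Over all genes of the series whose leading tag begins with T, 26.3% were called higher and 2.77% lower, against 5.47% to 7.35% higher for the other bases. Tags beginning with T made up 6.978% (AVC), 8.589% (OFT), 10.57% (atria), 13.52% (ventricles) and 26.76% (null AVC) of the family's tags. Rpl32, Rpl19, Rpl3l, Rps15a, Rps23 and Rps26 belong to that class. Without tags that begin with T, 6 genes of the family were called higher, with the share of all genes in that setting not given. Rpl32 was still called higher, while the ratio of Rpl19 turned to -0.54. What makes the tag classes differ was not tested.

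Several genes gave more than 1 tag, and the tags of a gene did not always move together. The leading tag held 96.17% to 99.1% of the family's tags, so second tags weigh little in the family's total, but they can weigh more within a gene. The log2 ratio of Rpl36 in the AVC was 3.24 on its leading tag and 2.45 on all its tags. The pairs are shown for 2 genes because both tags of each come from almost the same stretch of mRNA. The tags of Rpl22l1 start at 1 site, and those of Rps3a1 at neighboring sites.
Rpl22l1 first: catgGcgccgaaagacaagaa
Rpl22l1 second: catgGcgccgcagaaagacaa
Rps3a1 first: catgGagctgcatggggaagg
Rps3a1 second: catgGggaaggcggcagctct

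Both tags of Rpl22l1 begin at chr3:28805534 and cross an intron, which leaves out 956 bases for the second and 959 for the first, as 2 splice forms with neighboring acceptor sites would. The second is also in the pseudogene Gm15421, and tags of the gene and of that copy cannot be told apart. The second tag made up 25.6% of the 2 tags in the AVC (95% exact interval 16.9 to 35.8), 21.7% in the OFT (14.6 to 30.4), 18.1% of atrial tags (16.6 to 19.6) and 21.1% of ventricular tags (19.7 to 22.4). In the null AVC it made up 81.5% (76.9 to 85.5), with 277 tags against 63. The intervals of the 4 wild-type libraries overlap or adjoin, and that of the null AVC stands apart. Wild-type and null libraries also differ in strain.

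The tags of Rps3a1 start 10 bases apart on chromosome 3 (86138080-86138100 for the first and 86138070-86138090 for the second, minus strand). The second made up 63.3% of both in the AVC (59.8 to 66.8) and 66.1% in the OFT (62.2 to 69.9), but 5.37% of atrial tags (3.39 to 8.01), 12.7% of ventricular tags (8.0 to 18.7) and 13.6% of those from the null AVC (11.1 to 16.4). For Rpl36 the order was the opposite, with the second tag at 1.67% (AVC), 1.01% (OFT), 44.7% (atria), 41.3% (ventricles) and 14.2% (null AVC).

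For Rpl21 the null AVC stood apart. Its second tag made up 41.6% there (41.0 to 42.3) and 0.772% to 2.37% in the wild-type libraries. The second tags of Rps3a1, Rpl36 and Rpl21 are also in 7, 13 and 31 other annotated genes, so tags of copies may be among them. For Rpl13a, the second tag, which is in no other annotated gene, made up 16.7% (AVC), 13.3% (OFT), 3.90% (atria), 5.22% (ventricles) and 25% (null AVC).

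**Figure D4:**
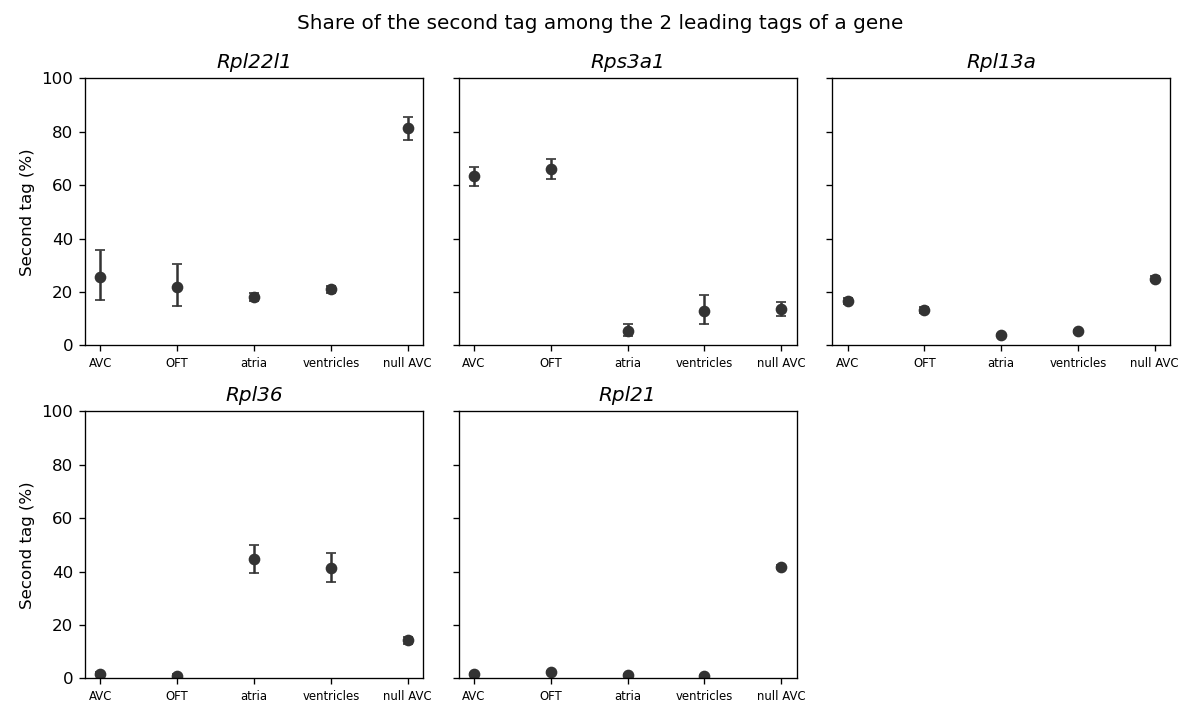
Points give the second tag as a percent of the 2 leading tags of a gene in each library, with 95% exact intervals that cover counting error only. Rpl22l1 and Rpl21 stand highest in the null AVC (81.5% and 41.6%), Rps3a1 in the AVC and OFT, and Rpl36 in the atria and ventricles.

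Related genes outside the family were read from lists of the same pathway. Fau, which encodes a ribosomal protein fused to a ubiquitin-like protein, was called higher in the null AVC with a log2 ratio of 1.87 (exact test, p = 0.0118), and neither Fau nor Rack1 was called against the chambers. Of the 76 mitochondrial ribosomal protein genes tested, 13 were higher and 9 lower in the AVC than in the chambers, with a median log2 ratio of -0.05, near the family's -0.12. Of 36 translation factor genes, 10 were higher and 6 lower in the AVC, and of 31 ribosome biogenesis genes 7 were higher and 5 lower. Over all genes, 43.4% were called higher and 8.12% lower in that comparison, with a median of 1.23. In the null AVC these lists gave 5 higher and 9 lower (mitochondrial ribosome), 4 and 2 (translation factors) and 7 and 2 of 32 (biogenesis), where 11.9% and 12.7% of all genes were called. Of 15 growth regulator genes, 7 were higher and 2 lower in the AVC, and of 16 in the null AVC 3 were higher and 1 lower. The growth regulators called higher in the AVC included Mxd1, with 54 tags there and 0 in the chambers (exact test, p = 3.17e-07). Trp53 was higher too (log2 ratio 3.47, exact test, p = 1.49e-05). The 2 called lower were Myc (log2 ratio -2.34, exact test, p = 0.00342) and Mycn, which drives ribosome production (log2 ratio -2.80, exact test, p = 0.000376). Mycn was higher in the null AVC than in the wild-type AVC (log2 ratio 2.79, exact test, p = 0.000397).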

How the data were processed

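Tag-seq counts were deposited by the authors as 1 list per library of 17-base tags following CATG and their counts, holding only types with more than 5 tags. The labels name mm9, and per the study's methods reads were processed with ELAND and tags mapped to genes with DiscoverySpace. The methods state that background and unmapped tags and 1-base mismatches of abundant tags were left out of that analysis; 1-base neighbors of abundant tags are in the deposited lists. Tags were matched to virtual tags of 33363 RefSeq-linked GENCODE transcripts (GRCm38), and sense tags of 1 gene were summed. Levels are tags per 1000000 listed tags (TPM) of a library, whose total was 4223810 to 12977237, so the smallest listed count of 6 is worth 0.462 to 1.42 TPM. The atria and ventricles were summed, and each pair of columns was tested over all genes with edgeR 4.0.16 (R 4.3.3), two-sided exact test, dispersion 0.12 as in the study's methods, called at unadjusted p under 0.05. The test was also run on data simulated with that same dispersion, which does not show that the dispersion suits these libraries. There it recovered 69.5% to 76.5% of 200 genes changed 4-fold and called 3.99% to 4.67% of unchanged genes. A prior count of 0.125 entered each log2 ratio. Alternatives used DESeq2 1.42.0 size factors and others given at the end. Intervals are 95% Clopper-Pearson (scipy 1.17.1). Genes and lists were chosen with earlier results of these data known. Named genes were drawn from the stalk genes, Rpsa, paralogues with their parents and the 5 highest levels. They were also drawn from the 5 smallest p per direction and the genes with no or mostly shared tags. Not every gene of these groups is given with values. Other genes named here, and the second tags, were chosen after their values were seen. Tags of chromosome 18 are not printed. Values of a few single genes are not reported here, and counts over the family include them.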

Additional observations from a re-analysis of the deposited data

Results flagged for a closer look

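Tags matching the antisense strand of the ribosomal protein genes, which entered no comparison, summed to 3233 TPM (AVC), 3779 (OFT), 1748 (atria), 2047 (ventricles) and 3396 (null AVC). They equaled 4.15%, 4.53%, 1.76%, 1.76% and 4.27% of the sense tags of the family. They drew attention because they stood above 0 in data left out of the report.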

How the results depend on the processing

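No paired analysis was possible because each group is 1 library. The 17 alternatives changed 1 choice each. Of the named genes called, 3 of 19 (AVC), 3 of 18 (OFT) and 1 of 17 (null AVC) held in each alternative that gave a value. The cause of the changes below was not tested, except that the search of all transcripts drops leading tags shared with other genes and adds tags of further transcripts. Depth limits the genes read from few tags, such as Rps15a and Rpl3l. Counts of calls under the alternatives, here and above, are of the family alone. The share of all genes called also changes with the setting and is not set beside them, so these counts show how the calls depend on processing and not a trait of the family.

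For the AVC, genes called lower numbered 30 with TMM, 32 with DESeq2 size factors, 4 with dispersion 0.4 and 6 with all transcripts, and genes called higher 4 with TMM, 4 with DESeq2 size factors, 20 with dispersion 0.05, 3 with dispersion 0.4, 20 past a 2-fold ratio without a test and 20 with all transcripts. Without the atria or ventricles the lower calls ran from 15 to 19 and the higher from 10 to 12.

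For the OFT, lower calls numbered 27 with TMM, 27 with DESeq2, 24 with dispersion 0.05, 3 with dispersion 0.4, 23 past 2-fold and 5 with all transcripts, and higher calls 5, 5, 18, 3, 18 and 17 in the same order. Without either chamber library the lower calls ran from 13 to 17 and the higher from 11 to 13.

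For the null AVC, lower calls numbered 7 with TMM, 19 with dispersion 0.05, 0 with dispersion 0.4, 2 with adjusted p and 18 past 2-fold, and higher calls 4 with dispersion 0.4, 4 with adjusted p, 21 with all transcripts and 6 without tags beginning with T. The count of 0 is edgeR's exact test at unadjusted p under 0.05, where the main dispersion gave 11.

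The log2 ratios below are fitted with edgeR's prior count, and those past 5 in size rest on 0 tags in 1 group, so they are no measure of size. Ratios turned with all transcripts in the AVC (Rpl10 6.90, Rpl37a 0.62, Rplp1 2.15, Rps13 9.57, Rps7 -0.30), the OFT (Rpl10 6.61, Rpl37a 1.03, Rplp1 1.68, Rps13 8.95) and the null AVC (Rpl13 2.10, Rpl22 2.74, Rpl37a 2.39, Rpl7 8.56, Rps19 6.48, Rps28 6.16, Rps7 2.62). They turned without tags beginning with T for Rpl19 (0.55) and Rpl32 (0.20) in the AVC, Rpl32 (0.11) in the OFT, and Rpl19 (-0.54) and Rps15a (-6.25) in the null AVC. With the 3′-most site they turned for Rps7 (-0.30) in the AVC, Rps20 (0.17) in the OFT and Rps7 (2.62) in the null AVC. With shared tags counted they turned for Rps15a (-1.21) in the AVC, Rpl29 (-0.78) in the OFT and Rpl14 (-0.62) in the null AVC.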
